A study of Homo sapiens with 12 samples.

Results

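The response of lung cancer cells to quinacrine alone was followed on 3 arrays, from cells kept in 3 µM quinacrine for 6, 12 or 24 h, each set against 1 array of untreated cells. These 4 arrays were chosen by their treatment labels from the 12 arrays of the series; 4 of the others came from 1 µM erlotinib and 4 from both compounds. A gene was described when its mean log2 level over the 12 arrays was at least 5, and of several rows for 1 gene that with the highest mean was kept. This kept 5820 of 22395 genes with a row of their own. The members nearest the limit were IPO5P1 and VTI1A, at a mean of 5.0, and the genes just outside it were CYP4V2 and GEM, at 4.999.

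All the cells were NCI-H1975, an established line of non-small cell lung adenocarcinoma whose EGFR, according to the labels, carries the L858R and T790M changes. They were grown in DMEM with 5% fetal bovine serum. The untreated array has no time in the labels, so it stands for no time point and does not follow the culture along with the treated arrays. Every treatment and time had 1 array and the labels do not tie the arrays to independent cultures. No difference between 2 single arrays was therefore tested. In the comparison of means, p-values below rest on the spread between the time points of an arm. In the fits of a line in log2 time they rest on the departure of arrays from that line. Both errors are pooled over the erlotinib, quinacrine and combination arms, and neither measures a spread between replicates. The title of the study names the histone chaperone FACT, the transcription factor NF-kappaB and the cell cycle.

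Quinacrine is an acridine derivative that was used against malaria. It is a weak base that collects in lysosomes and other acidic compartments, and it inserts between the bases of DNA. Cells that sense foreign or displaced nucleic acid, through helicases such as the products of RIGI and IFIH1, switch on interferon-stimulated genes; their products block translation of viral RNA, degrade it or amplify the sensing. Interferon signals reach these genes through a complex of STAT proteins with IRF9, which binds a short element of repeated GAAA blocks in their promoters. NF-kappaB acts faster, on cytokine, chemokine and adhesion genes, and raises its own inhibitor NFKBIA in a feedback loop.

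The arrays correlated with one another at 0.949 to 0.988 over all rows. The median level over the tested genes was 6.39, 6.45 and 6.56 on the quinacrine 6, 12 and 24 h arrays and 6.465 on the untreated array. The interquartile range of all rows was 2.38, 2.47 and 2.88 in the same order, against 2.56 without treatment. The combination 6 h array stood apart from the rest, with a range of 2.04 and a tested-gene median of 6.18. Of the epithelial markers, 9 of 14 were at a level of 5 or more on the untreated array, as were 2 of 10 lung lineage markers (NKX2-1 and FOXA2), 3 of 12 immune cell markers (CD68, CD74 and HLA-DRA) and 0 of 9 fibroblast and endothelial markers. The summed level of the immune markers was 31.43 on the untreated array and 32.46, 32.04 and 31.83 on the quinacrine arrays.

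The balance of higher and lower genes turned over between 6 and 24 h. A difference of at least 1 on the log2 scale, which is 2-fold, was counted. At 6 h 37 genes (0.636% of the tested genes) were that much higher than untreated and 116 (1.99%) lower. At 12 h 53 (0.911%) were higher and 67 (1.15%) lower, and at 24 h 112 (1.92%) were higher and 47 (0.808%) lower. The early array was thus mostly one of lower genes and the late array mostly one of higher genes. For scale, the erlotinib 6 h array differed from the untreated array by that much at 5 genes (0.0859%). The erlotinib 12, 24 and 48 h arrays did so at 57, 41 and 116 genes, so the 6 h array was the closest of them to untreated. The median difference over all tested genes was -0.03, 0.0 and 0.09 at 6, 12 and 24 h. With every array centred on the median of the tested genes, a step chosen after the data were seen, the counts at 24 h were 84 higher and 58 lower. With cyclic loess they were 69 and 63, so the excess of higher genes at 24 h depended on the scaling, while lower genes outnumbered higher ones at 6 h under each scaling tried.

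**Figure D1:**
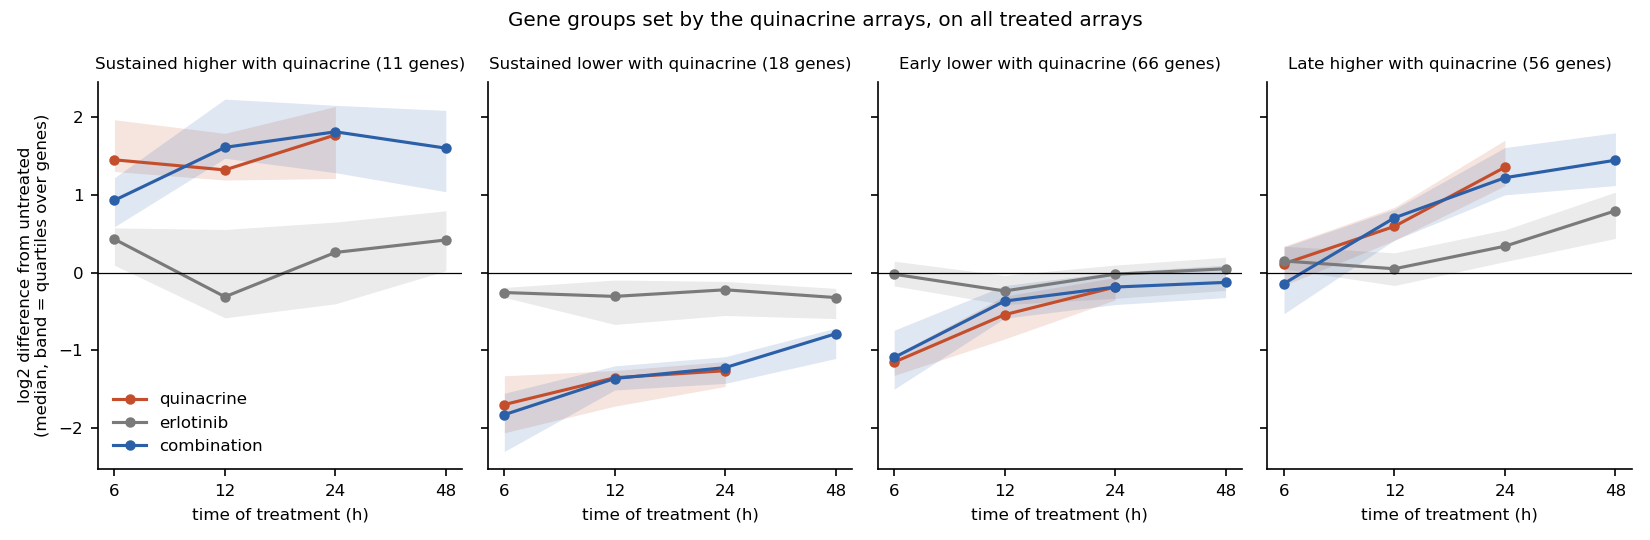
Median log2 difference from the untreated array (y axis) against time of treatment (x axis, h) for 4 gene groups set by the quinacrine arrays, with quinacrine, erlotinib and combination arrays in separate colours and bands for the quartiles over genes. The 66 early lower genes have a median of -1.15 at 6 h and -0.185 at 24 h with quinacrine, and the 56 late higher genes go from 0.115 to 1.355; the points chosen by the grouping are the quinacrine ones.

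Genes that stayed away from the untreated level on all 3 arrays formed the smallest group. By at least 1 log2, 11 genes (0.189%) were higher on every quinacrine array and 18 (0.309%) lower. The higher ones were GDF15, a stress-induced cytokine of the TGF-beta superfamily, the interleukin IL24, the chemokine CCL2, the deubiquitinase CYLD, which restrains NF-kappaB signalling, the galanin receptor GALR2, the acyl-CoA thioesterase ACOT1, PXDC1, the zinc finger gene ZBTB11, the small nucleolar RNA SNORA38B, the antisense gene DLGAP1-AS2 and the olfactory receptor pseudogene OR7E91P. Of these 11, 5 lay below a level of 5 on the untreated array, and passed the filter through the treated arrays. The lower ones included the inositol phosphatase INPP5A, the histone variant H2AX, RPTOR, a subunit of the growth regulator mTORC1, the apoptosis regulator BOK, the signalling genes WNT9A, DVL1 and CELSR1, the plexin PLXNA1, the RNA polymerase III factor BRF1, and the polymerase III transcripts SNAR-D, SNAR-E and RN5S60. SNAR and 5S sequences have near-identical copies, so their signals may be shared between loci.

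INPP5A was at 7.21 untreated and at 5.87, 5.41 and 5.61 after 6, 12 and 24 h of quinacrine. H2AX was at 9.02 untreated and at 7.73, 7.68 and 7.87. Both were low on every quinacrine array, and they were the 2 genes (0.0344%) that passed when the mean of the 3 quinacrine arrays was compared with the untreated array in limma. INPP5A fell 2.99-fold (log2 difference -1.58, SE 0.19, adjusted p = 0.016, n = 3 time points against 1 array; quinacrine level 5.63 ± 0.23, SD over times). H2AX fell 2.40-fold (-1.26, SE 0.16, adjusted p = 0.016; level 7.76 ± 0.10). Their erlotinib arrays lay from 7.01 to 7.18 and from 8.65 to 8.91, with no overlap with the quinacrine values. The same quinacrine arrays chose these 2 genes, so the gap describes them only. No gene was called without the quinacrine 24 h array, 1 without the quinacrine 6 h array and 5 without the combination 6 h array, and centring on the median of all rows left 0. The test treats every change with time as spread, and 599 genes had an unadjusted p below the 0.05 threshold.

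GDF15 was at 4.99 untreated and at 7.09, 7.19 and 7.97 with quinacrine. It was also high on the later erlotinib arrays, which read 5.57, 5.58, 7.17 and 8.2 from 6 to 48 h. IL24 was at 5.24 untreated and at 7.26, 7.63 and 7.42 with quinacrine, whereas its erlotinib arrays ranged from 3.75 to 5.19. CCL2 was at 7.72 untreated and at 8.85, 9.04 and 9.81. None of these cytokine genes passed in the comparison of means (adjusted p for GDF15 = 0.382).

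The sustained genes were also placed against the 4 erlotinib arrays. All 3 quinacrine arrays lay above all 4 erlotinib arrays for 9 of the 11 sustained higher genes and below them for 16 of the 18 sustained lower genes. The same quinacrine arrays chose these genes, so the counts describe the members only, and the shares over all tested genes, 9.33% above and 10.1% below, are no reference for them. All 4 combination arrays lay above the erlotinib arrays for 7 of the 11 (4.0% of all tested genes) and below them for 12 of the 18 (7.94%). The combination arrays entered the choice through the filter on the mean of the 12 arrays, by which 5 of the 11 passed with an untreated level below 5. GDF15, high with erlotinib at 48 h, is among the genes whose ranges overlapped.

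**Figure D2:**
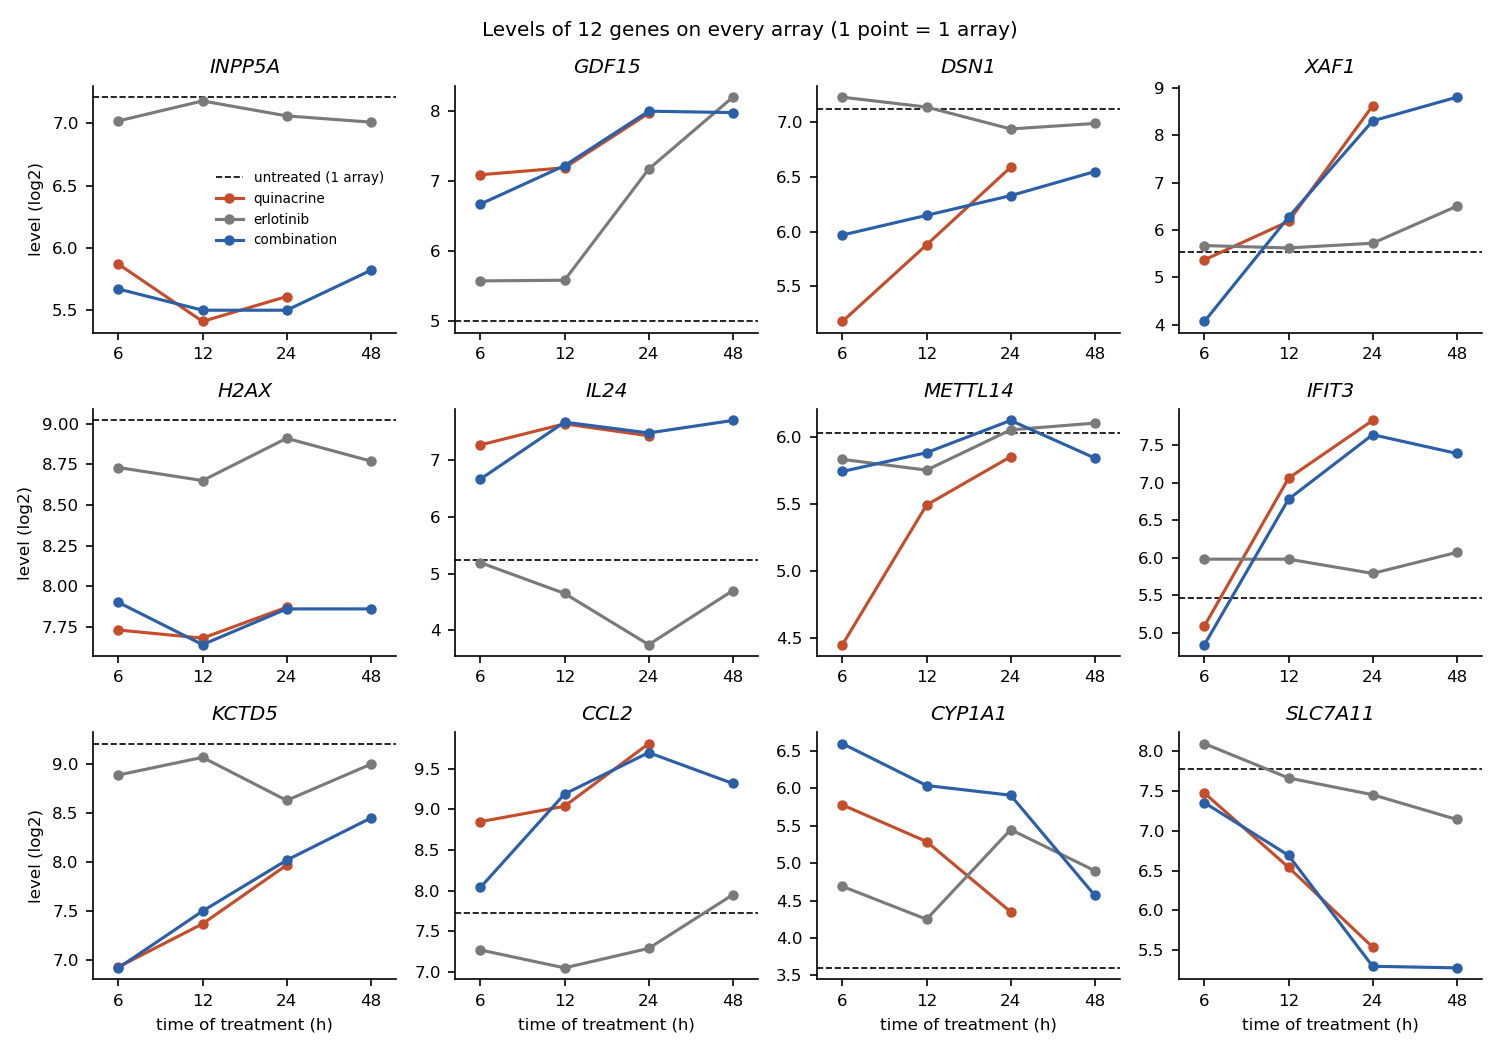
Log2 level (y axis) of 12 genes on every array against time (x axis, h), with the untreated array as a dashed line and 1 point per array. INPP5A, H2AX and KCTD5 lie below the dashed line on all quinacrine arrays, GDF15, IL24 and CCL2 above it, DSN1 and METTL14 are lowest at 6 h, and XAF1 and IFIT3 are highest at 24 h.

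A separate fit placed a line in log2 time through each arm and read its value at 6 h. In that test 19 genes (0.326%) fell and 4 (0.0687%) rose against untreated. DSN1, a kinetochore subunit, was at 7.12 untreated and at 5.18, 5.88 and 6.59 with quinacrine, a 3.84-fold fall at 6 h (log2 -1.94, SE 0.16, limma adjusted p = 0.00338). KCTD5, an adaptor of cullin ubiquitin ligases, was at 9.21 and then 6.93, 7.37 and 7.97, a 4.95-fold fall at 6 h (SE 0.22, adjusted p = 0.00555). RPTOR was at 6.99 and then 5.16, 5.71 and 5.86 (3.40-fold, SE 0.19, adjusted p = 0.014). All 3 were lowest at 6 h and closer to untreated at 24 h.

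The other genes that fell at 6 h were NACC2, FAM83H, WNT9A, BOK, the linker histone H1-4, ITPRIPL2, the ubiquitin ligase RNF41, H2AX, FZR1, an activator of the anaphase-promoting complex, the receptor NOTCH1, INPP5A, METTL14, a subunit of the enzyme that methylates adenosine in mRNA, TMEM209, NUDT16L2P, C5orf22 and POLR1A, the largest subunit of RNA polymerase I. The genes that rose were PXDC1 (2.79-fold, adjusted p = 0.0344), SNAPC1, a factor for small nuclear RNA transcription (2.63-fold, adjusted p = 0.0344), ZBTB11 (2.42-fold, adjusted p = 0.0344) and the retinol dehydrogenase RDH10 (2.16-fold, adjusted p = 0.0408). PXDC1 was at 5.13 untreated and at 6.58, 6.58 and 6.4, and SNAPC1 at 6.4 and then 7.79, 7.59 and 7.36. The largest fall, that of WNT9A at 2.42 log2, exceeded the largest rise, that of PXDC1 at 1.48. The number called was 0 without the quinacrine 6 h array, 6 without the 12 h or the 24 h array, 3 without the erlotinib 24 or 48 h array, 13 without the erlotinib 6 h array, 7 and 11 without the combination 24 and 48 h arrays and 60 without the combination 6 h array. It was also 0 with arrays of 6, 12 and 24 h only.

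A group of genes was low at 6 h and back near the untreated level at 24 h. At least 1 log2 lower at 6 h and less than 0.5 away from untreated at 24 h were 66 genes (1.13%); only 7 (0.12%) showed the mirror course. HSDL1, a dehydrogenase-like gene, was at 5.57 untreated and at 3.41, 5.3 and 5.22 with quinacrine. METTL14 was at 6.03 and then 4.45, 5.49 and 5.85. DNAJC6, a cofactor in the uncoating of clathrin vesicles, was at 5.79 and then 4.0, 5.22 and 5.4. Also in this group, and named after their values were seen, were the replication licensing factor CDT1, the helicase BLM, the hypoxia regulators VHL and ARNT, the histone methyltransferase SETDB1, and MAT2A, the enzyme that makes S-adenosylmethionine. At 12 h 56 of the 66 lay between their 6 and 24 h values, with a median difference of -0.54. The 7 genes of the mirror course were the zinc finger genes ZNF367, ZNF584 and ZNF850, FAM117B, GPATCH2L, the microRNA gene MIR339 and the Y RNA copy RNY4P19. FAM117B was at 6.13 untreated and at 7.37, 6.73 and 6.47 with quinacrine.

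The early lower genes were read again in the other arms, which entered their choice through the mean level alone; all 66 were at a level of at least 5 without treatment. In the combination arm 65 of the 66 were higher at 24 h than at 6 h and 26 by at least 1 log2, with a median change of 0.85. Over all tested genes the median change there was 0.28, 79.7% were higher at 24 h and 9.45% by at least 1 log2. In the erlotinib arm 22 of the 66 were higher at 24 h than at 6 h and 1 by at least 1 log2 (0.137% of all tested genes), with a median change of -0.095. Over all tested genes 41.4% were higher there and the median change was -0.05. The early quinacrine array had 8312 rows whose level reached 5, the untreated array 8692, the 24 h array 9169 and the combination 6 h array 7470. The part of these array-wide differences in the early group was not tested; with cyclic loess 41 of the 66 genes met the same limits, and with centring on the tested genes 45 did.

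Another group lay less than 0.5 from the untreated level at 6 h and at least 1 log2 above it at 24 h. It held 56 genes (0.962%), and 10 (0.172%) were at least 1 log2 below it at 24 h instead. With cyclic loess 34 of the 56 met the same limits, and with centring on the tested genes 38 did. XAF1, an interferon-inducible antagonist of apoptosis inhibitors, was at 5.54 untreated and at 5.37, 6.18 and 8.62 with quinacrine. IFI44L was at 4.19 and then 4.23, 4.48 and 7.13. The helicase-like DDX60 was at 4.93 and then 5.07, 5.87 and 7.41, and IFIT3, which binds viral RNA complexes, at 5.46 and then 5.09, 7.06 and 7.83. At 6 h XAF1 and IFIT3 were below the untreated array, and at 24 h all 4 were above every erlotinib array. Among the 56 were 25 genes below a level of 5 on the untreated array, which reached the filter through treated arrays; in the combination arm the median change from 6 to 24 h was 1.23 for these 25 and 1.38 for the other 31. At 12 h 52 of the 56 lay between their 6 and 24 h values.

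Interferon-response genes made up 14 of the 56. In the whole list, 20 of 30 genes were tested, and their median difference from untreated was -0.165 at 6 h, 0.33 at 12 h and 1.92 at 24 h. None was 1 log2 higher at 6 h, 1 was at 12 h (IFIT3) and 15 were at 24 h, against 0.636%, 0.911% and 1.92% of all tested genes. Of the 20, 7 lay below a level of 5 on the untreated array and passed the filter through treated arrays; among the other 13 the medians were -0.24, 0.35 and 1.66, and 9 were 1 log2 higher at 24 h. Over all 27 list members with a row of their own, including 7 that the filter left out, the medians were -0.13, 0.37 and 1.94, and 0, 3 and 21 were 1 log2 higher. OAS2, a 2'-5' oligoadenylate synthetase that activates RNA decay, had the largest value, from 4.49 untreated to 3.82, 4.8 and 7.85 with quinacrine. USP18, which removes the ubiquitin-like ISG15 and damps interferon receptor signalling, was at 7.88 and then 7.61, 8.43 and 10.25. IRF9, the DNA-binding partner of the STAT proteins, was at 4.48 and then 4.75, 5.18 and 6.83. RIGI, which senses RNA, differed by 0.11, 0.46 and 1.94. The exceptions were IFITM2, 0.38 below untreated at 24 h, LGALS3BP, 0.08 above it, and IFITM3, DTX3L and IFI35, at 0.52, 0.56 and 0.88. Outside the list, IFIH1, another RNA sensor, was at 4.06 untreated and at 4.92, 5.54 and 6.78. It too passed the filter through treated arrays.

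**Figure D3:**
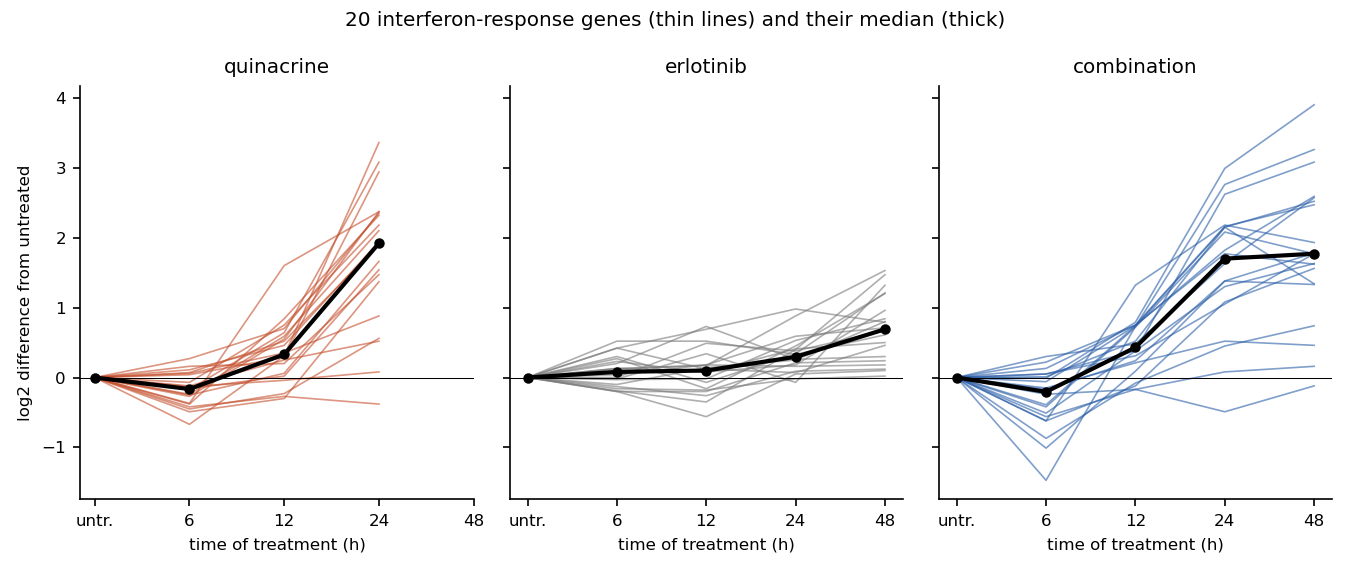
Log2 difference from the untreated array (y axis) for 20 interferon-response genes (thin lines) and their median (thick line) against time (x axis, h) in each arm. The medians are 1.92 with quinacrine and 1.7 with the combination at 24 h, and 0.69 with erlotinib at 48 h, a time without a quinacrine array.

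Promoters of the genes that were late and high were read for the interferon element, here GAAANNGAA or its reverse complement TTCNNTTTC. Sequences are RefSeq's for GRCh38.p14, from 250 bases before to 50 after the gene's start, and 4805 of the 5820 tested genes (82.6%) had one. They are shown 5' to 3' on the strand of the gene, with the element in capitals, because most promoters of the interferon list hold it in this window. XAF1 is shown because it had the largest 24 h difference of the late higher group and no match in this window.
IFI44L (chr1:78620198-78620497, plus strand): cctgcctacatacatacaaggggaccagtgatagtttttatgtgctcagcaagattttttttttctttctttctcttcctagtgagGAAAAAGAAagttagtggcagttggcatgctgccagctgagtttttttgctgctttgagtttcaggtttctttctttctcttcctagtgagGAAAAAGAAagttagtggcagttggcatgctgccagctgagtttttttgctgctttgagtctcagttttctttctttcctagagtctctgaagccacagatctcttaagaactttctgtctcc
IFIT3 (chr10:89327747-89328046, plus strand): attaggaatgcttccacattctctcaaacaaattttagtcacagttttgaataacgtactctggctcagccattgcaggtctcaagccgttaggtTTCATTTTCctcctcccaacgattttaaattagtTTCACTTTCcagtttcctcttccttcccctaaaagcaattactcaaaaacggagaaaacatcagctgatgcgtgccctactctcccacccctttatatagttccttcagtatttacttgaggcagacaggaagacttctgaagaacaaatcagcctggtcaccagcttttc
IFIT1 (chr10:89392373-89392672, plus strand): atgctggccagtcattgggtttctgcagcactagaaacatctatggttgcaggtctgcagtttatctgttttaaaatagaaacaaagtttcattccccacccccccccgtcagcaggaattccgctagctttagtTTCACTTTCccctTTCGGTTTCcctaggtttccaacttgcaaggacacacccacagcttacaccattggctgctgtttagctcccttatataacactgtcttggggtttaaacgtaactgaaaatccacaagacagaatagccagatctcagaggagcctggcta
IFI6 (chr1:27672143-27672442, minus strand): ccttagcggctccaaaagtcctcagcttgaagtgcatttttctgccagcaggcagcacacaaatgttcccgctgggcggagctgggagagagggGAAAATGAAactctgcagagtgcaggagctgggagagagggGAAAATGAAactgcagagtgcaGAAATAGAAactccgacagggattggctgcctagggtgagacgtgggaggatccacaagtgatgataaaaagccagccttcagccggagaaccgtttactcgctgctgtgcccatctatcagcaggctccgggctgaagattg
XAF1 (chr17:6755796-6756095, plus strand): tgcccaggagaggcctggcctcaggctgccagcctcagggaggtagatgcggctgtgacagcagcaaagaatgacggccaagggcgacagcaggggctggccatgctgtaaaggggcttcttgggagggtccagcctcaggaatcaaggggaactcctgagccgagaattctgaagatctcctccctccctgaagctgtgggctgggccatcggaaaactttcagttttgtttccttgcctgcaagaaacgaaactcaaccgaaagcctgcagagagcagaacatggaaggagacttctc
IFI44L, IFIT3 and IFIT1 each held 2 matches and IFI6 held 3.

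Of 17 tested interferon-response genes with a promoter, 12 (70.6%) held the element, compared with 8.29% of all 27305 promoters and 6.16% of those of tested genes. Of the late higher genes with a promoter, 15 of 45 (33.3%) held it. These were 9 of the 13 in the list and 6 of the 32 outside it (DDX60, DDX60L, EIF2AK2, CFB, NMI and ACOT8). EIF2AK2 encodes the RNA-activated kinase that stops translation, CFB complement factor B. Of 47 promoters of early lower genes 0 held it, and of 11 of sustained lower genes 0 did. A match describes the letters in this window and is not a measured binding site.

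The change from 6 to 24 h within the quinacrine arm needs no untreated array. It was at least 1 log2 upward for 155 genes (2.66%) and downward for 7 (0.12%). With arrays centred on the tested genes these counts were 90 and 17, and with cyclic loess 85 and 16. The largest upward changes with the 12 h value in between were those of XAF1, OAS2, IFI44L, IFIT3, IFIT1, USP18 and HERC6, an interferon-inducible ubiquitin ligase. HERC6 was at 6.45 untreated and at 5.84, 6.69 and 8.3 with quinacrine, with a slope of 1.23 log2 per doubling of time (SE 0.16, limma adjusted p = 0.0732, n = 3 time points). No gene passed in the limma test of the slope (0.0% of the tested genes), and 618 had an unadjusted p below the 0.05 threshold. The smallest adjusted p was 0.0732.

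The same change was read in the other arms, which share no array with it, although their levels enter the filter. Of the 155 genes, 153 (98.7%) were also higher at 24 h than at 6 h in the combination arm, against 79.7% of all tested genes. A difference of at least 1 log2 was reached by 97, which is 62.6% of the 155 and 17.6% of the 550 genes (9.45% of those tested) that reached it in the combination arm. Of the 7 downward genes, 6 were lower at 24 h there and 3 by at least 1 log2, against 11 genes (0.189%) in all. In the erlotinib arm 76 of the 155 (49.0%) were higher at 24 h and 1 reached 1 log2. All tested genes stood at 41.4% there, and 21 (0.361%) were at least 1 log2 lower. With the combination arrays centred on the tested genes, 227 genes in place of 550 were at least 1 log2 higher at 24 h.

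For the 20 interferon-response genes the median change from 6 to 24 h was 1.885 with quinacrine, 1.845 with the combination and 0.2 with erlotinib. All 20 were higher at 24 h in the first 2 arms, 16 and 17 of them by at least 1 log2. Of all 5820 tested genes, 3917 were higher with quinacrine and 79.7% with the combination, 2.66% and 9.45% by at least 1 log2. In the erlotinib arm 17 of the 20 were higher and 0 by that much, against 41.4% and 0.137% of all tested genes. Of the 20, 7 passed the filter through treated arrays. The other 13 were all higher at 24 h with the combination, 11 by at least 1 log2. XAF1 was at 4.07 on the combination 6 h array and at 8.3 at 24 h. At 48 h of erlotinib, for which there is no quinacrine array, the list's median difference from untreated was 0.69. A test of the slope between quinacrine and erlotinib called no gene (limma; the smallest adjusted p was 0.106, and 447 genes lay below 0.05 before adjustment).

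**Figure D4:**
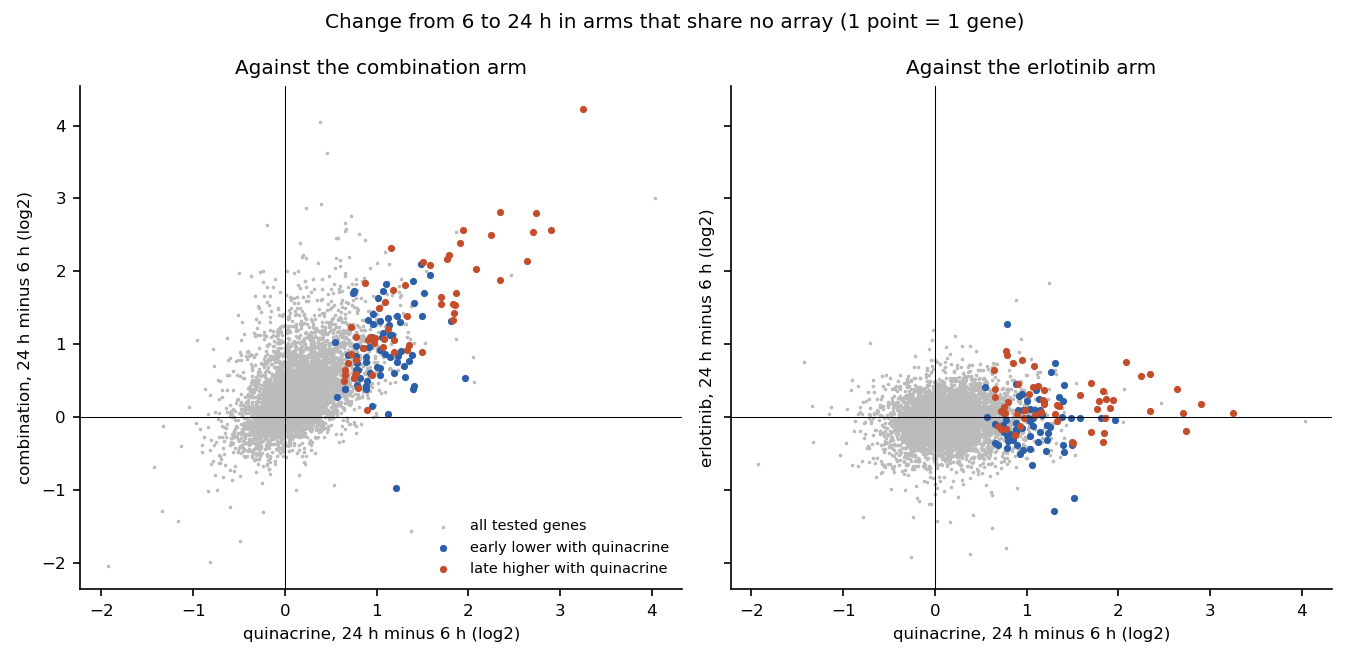
Change from 6 to 24 h in the quinacrine arm (x axis, log2) against the same change in the combination arm (left) and the erlotinib arm (right), 1 point per tested gene. The late higher and early lower genes, chosen by their differences on the quinacrine arrays and by the mean of all 12 arrays, have median changes of 1.355 and 0.85 in the combination arm and of 0.155 and -0.095 in the erlotinib arm.

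The downward late course was led by the cystine transporter SLC7A11, which supplies cysteine for glutathione. It was at 7.77 untreated and at 7.47, 6.54 and 5.54 with quinacrine, lower at each step. On the combination arrays it was at 7.35, 6.69, 5.3 and 5.28, and on the erlotinib arrays at 8.09, 7.66, 7.45 and 7.14. BOP1, a factor of large ribosomal subunit assembly, was at 7.94 and then 7.59, 6.77 and 6.43. EDF1, a transcriptional coactivator, was at 9.56 and then 9.05, 8.83 and 7.71, and the mitochondrial gene ND6 at 8.63 and then 8.27, 8.6 and 7.45. ND6 varied in the other arms too, from 7.41 to 9.11 with erlotinib and from 7.62 to 9.7 with the combination. In the limma reading of the line at 24 h no gene passed (0.0%), and 815 genes lay below 0.05 before adjustment. SLC7A11 was 2.22 lower there (SE 0.30, adjusted p = 0.0544) and the growth factor MDK 1.44 higher (SE 0.17, adjusted p = 0.0544). The count was 49 with genes at a mean of at least 6, 77 with a prior variance that followed the level and 60 with arrays centred on the tested genes.

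CYP1A1, the aryl hydrocarbon receptor's best known target, ran the other way in time from the interferon genes. It was at 3.6 untreated and at 5.78, 5.29 and 4.35 with quinacrine. On the combination arrays it was at 6.6, 6.04, 5.91 and 4.57, and on the erlotinib arrays at 4.69, 4.25, 5.45 and 4.9, so it was above the untreated array on all treated arrays. With an untreated level below 5, CYP1A1 passed the filter through treated arrays. Its place above untreated is therefore tied to that choice. CYP1B1, a second target of that receptor, was at 6.62 untreated and lower with quinacrine, at 6.21, 5.9 and 5.76. Its partner subunit gene ARNT was at 7.13 and then 5.81, 6.23 and 6.77.

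Of 23 NF-kappaB targets with a row of their own, 13 were tested, and those the filter left out were not counted. Among the 13, 4, 3 and 6 were at least 1 log2 higher at 6, 12 and 24 h. At any time 0 were that much lower. Of all tested genes 0.636%, 0.911% and 1.92% were that much higher. The list's median differences were 0.31, 0.09 and 0.64. ICAM1, the adhesion molecule that binds leukocytes, was at 7.64 untreated and at 8.82, 8.33 and 8.69 with quinacrine. The chemokine CXCL16 was at 4.66 and then 5.32, 6.26 and 6.44. With erlotinib it was at 3.66 to 4.21, so it passed the filter through quinacrine and combination arrays. It is among the targets counted as higher at 12 and 24 h. CXCL8 differed by 1.03, 0.6 and 1.65, and IRF1, which also responds to interferon, by 0.96, 0.93 and 1.53. The feedback inhibitor NFKBIA was at 8.94 untreated and at 8.57, 8.69 and 9.47, so it was below untreated at 6 and 12 h. The subunits lay closer to untreated: NFKB1 was at 6.59 and then 6.5, 6.3 and 6.6, and RELA at 7.27 and then 6.9, 7.36 and 7.07. None of the 13 targets passed a limma test. The NF-kappaB letters GGAAANTCC or GGGANTTTC were in 4 of 10 of their promoters (40.0%), against 2.35% of all promoters.

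The FACT subunits were near their untreated level throughout. SUPT16H was at 8.54 untreated and at 8.35, 8.48 and 8.62, and SSRP1 at 8.02 and then 8.14, 8.04 and 8.03. Of 40 tested genes of G1/S and DNA replication, 2 were at least 1 log2 lower at 6 h (CDT1 and the chromatin assembly subunit CHAF1A) and 0 at the later times (1.99%, 1.15% and 0.808% of all tested genes), with medians of -0.15, -0.16 and -0.145. CHAF1A was at 6.3 untreated and at 5.23, 5.4 and 5.63. CCNE2, a cyclin of the entry into S phase, was at 5.59 and then 4.92, 4.73 and 4.87, while CDC6, which loads the replicative helicase, was higher, at 6.98 and then 7.6, 7.76 and 7.72. Of 37 genes of G2/M and mitosis 0 reached 1 log2 in either direction, with medians of 0.0, 0.12 and 0.1, and CDK1 was at 5.44 and then 5.73, 5.65 and 5.56. CCND1 was at 7.88 and then 7.2, 7.32 and 7.81, and MYC at 8.31 and then 7.97, 7.71 and 7.89. EGFR was at 8.63 untreated and at 8.1, 8.11 and 8.45. Among 12 tested replication-dependent histones, H1-4 was at 11.42 and then 9.99, 10.64 and 11.03, and no other was 1 log2 away at any time.

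The sterol genes with the largest differences were highest at 12 h. INSIG1, which retains the sterol sensor in the endoplasmic reticulum, was at 8.43 untreated and at 9.47, 9.76 and 9.07 with quinacrine. MSMO1, an enzyme of late cholesterol synthesis, was at 8.13 and then 9.22, 9.64 and 9.05, and HMGCS1, of the early pathway, at 6.87 and then 7.57, 7.67 and 7.23. Of 15 tested genes 2, 2 and 0 were at least 1 log2 higher at 6, 12 and 24 h, beside 0.636%, 0.911% and 1.92% of all tested genes, and the medians were 0.13, 0.33 and 0.36. NPC1, which exports cholesterol from lysosomes, was at 8.65 and then 9.16, 9.31 and 9.39.

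Autophagy genes were higher by small amounts. All 21 tested were above the untreated array at 24 h, 15 at 6 h and 18 at 12 h, and none by 1 log2. Their medians were 0.11, 0.36 and 0.49, against -0.03, 0.0 and 0.09 over all tested genes. How many of all tested genes lay above untreated was not counted, and at 24 h their median was itself above untreated. Counts above untreated in this paragraph therefore have no reference share. TAX1BP1, a cargo receptor, was at 8.14 and then 8.53, 8.61 and 8.72, and RB1CC1, a subunit of the initiating kinase complex, at 5.21 and then 5.88, 5.98 and 5.96. Of 30 lysosomal genes 23 were above untreated at 24 h with a median of 0.215, and the cysteine protease CTSS alone was 1 log2 higher, at 6.32 untreated and 6.04, 6.97 and 7.74. On the erlotinib 48 h array the autophagy list had a median of 0.41 and the lysosome list 0.21. The 9 antigen presentation genes were all above untreated at 24 h, with a median of 0.49, and TAP1 and PSMB10, a peptide transporter and a proteasome subunit, were 1.04 and 1.11 higher. Of all tested genes 1.92% were at least 1 log2 higher at 24 h.

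Heat shock and endoplasmic reticulum lists had medians slightly below those of all tested genes. The latter were -0.03, 0.0 and 0.09 at 6, 12 and 24 h. Cytosolic heat shock genes had medians of -0.05, -0.19 and -0.12 over 13 genes, and endoplasmic reticulum chaperones -0.12, -0.14 and -0.14 over 17; HSPA5 was at 10.13 and then 9.8, 9.57 and 9.49. Of 27 ATF4 targets and tRNA synthetases, 2 were at least 1 log2 lower at 12 and 24 h, SLC7A11 and XPOT, the exporter of tRNA from the nucleus. Of all tested genes 1.15% and 0.808% were that much lower at these times. XPOT was at 7.93 and then 7.28, 6.62 and 6.79. CEBPB, of the same list, was higher, at 5.62 and then 5.9, 6.27 and 6.6. Of 11 p53 targets GDF15 alone was 1 log2 higher, and PHLDA3 alone 1 log2 lower, at 6 h: it was at 5.21 and then 4.16, 5.04 and 5.04. Beside this, 0.636%, 0.911% and 1.92% of all tested genes were that much higher at 6, 12 and 24 h. At 6 h 1.99% were that much lower. SAT1, which acetylates polyamines for export, was at 6.94 and then 7.36, 7.91 and 8.71.

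**Figure D5:**
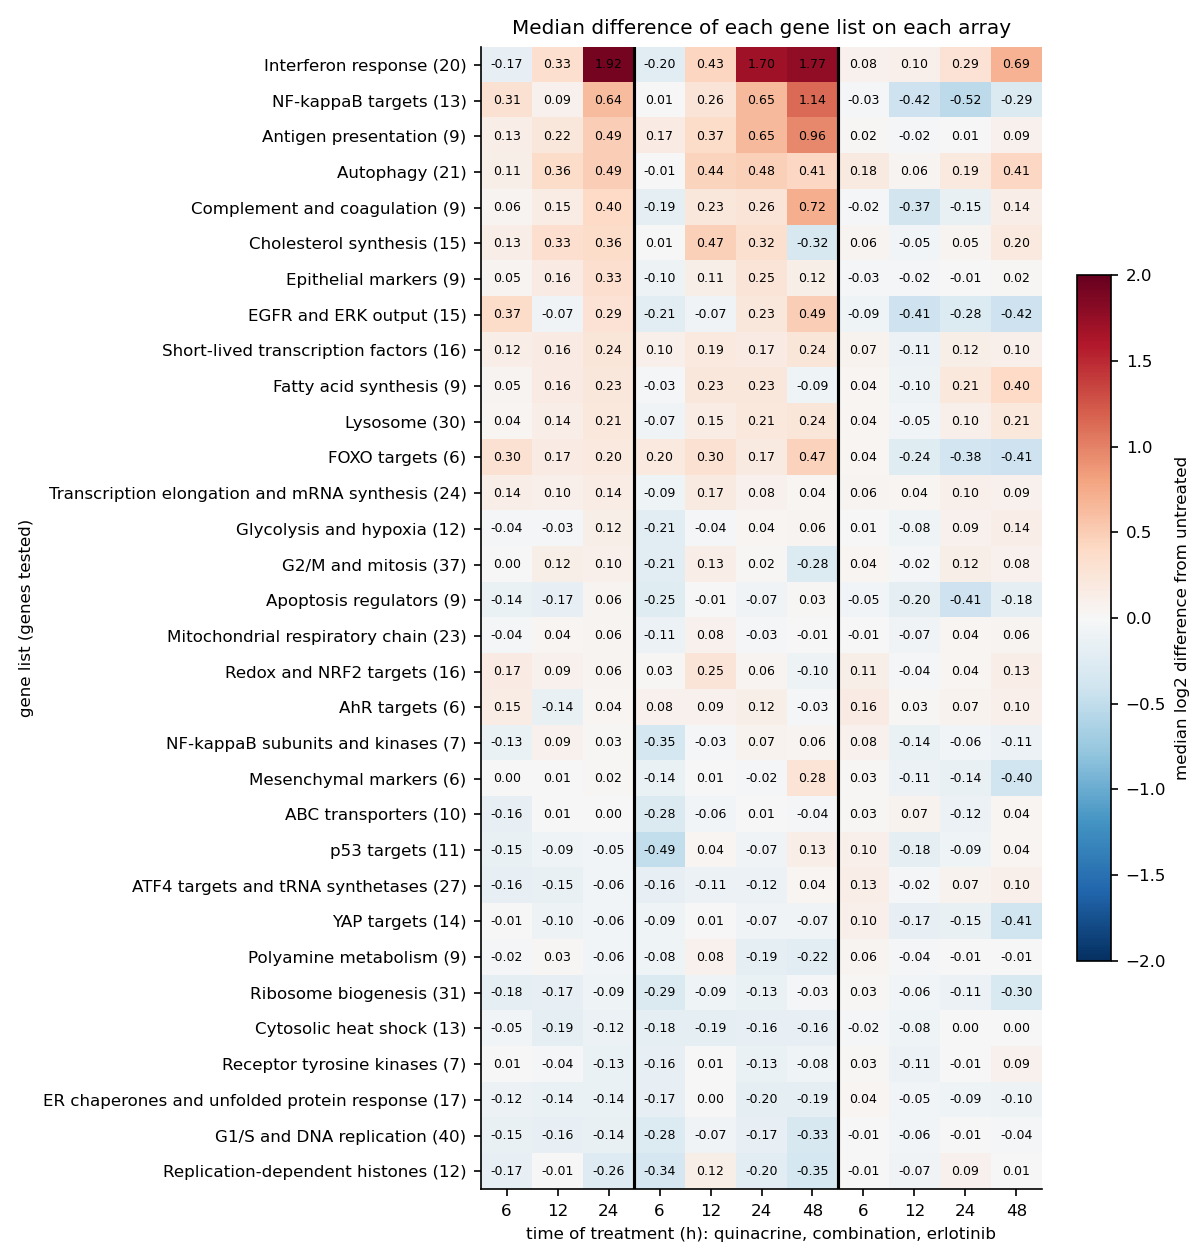
Median log2 difference from the untreated array (colour and printed value) for each gene list with at least 5 tested genes (rows, with the number tested) on each treated array (columns, time in h). The interferon list reaches 1.92 on the quinacrine 24 h array, and the other lists lie between -0.255 and 0.64 there.

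Letters of other factors were searched on both strands in the same promoters. The heat shock letters GAANNTTC were in 27.3% of 11 heat shock promoters (6.87% of all), the lysosomal TCACGTGA in 5 of 20 (1.04%), the ATF4 letters TGATGNAA in 27.3% of 22 (3.67%), the sterol letters ATCACNCCA in 7.69% of 13 (0.564%), the E2F letters TTTCCCGC in 27.8% of 36 G1/S promoters (1.66%) and the mitotic TTTGAA in 71.0% of 31 (15.4%). The lists hold genes known to use these factors. In promoters of the 47 early lower genes the E2F letters were in 1 (2.13%), TTTGAA in 5 (10.6%) and the heat shock letters in 2 (4.26%). TCACGTGA was in 1 (2.13%), the ATF4 letters in 1 (2.13%) and the sterol letters in 0. Over the promoters of all tested genes the shares were 3.25%, 9.86%, 4.72%, 2.25%, 1.62% and 0.395% in the same order.

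Promoter base content went with the differences weakly. Spearman's rho across genes between promoter GC and the difference from untreated was -0.074, -0.096 and -0.106 at 6, 12 and 24 h, and from -0.045 to -0.001 on the erlotinib arrays; genes are not independent replicates, and the arrays share the untreated one. Of the 912 genes with a GC of 74.0% to 94.0%, 15 (1.64%) were at least 1 log2 lower at 24 h, while in the other 4 bins of GC the share was from 0.104% to 0.509%. Of the 983 genes with a GC of up to 57.7%, 36 (3.66%) were at least 1 log2 higher at 24 h, against 0.877% to 1.46% in the other bins. The median promoter GC was 56.7% for 45 late higher genes and 62.0% for 47 early lower genes, against 65.7% for all. An array reads an average over a culture, and a change in the share of cells cannot be told apart from a change in RNA per cell.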

How the data were processed

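Human Gene 2.1 ST arrays (Affymetrix) were summarised by the authors with RMA in Expression Console 1.30 on hg19 annotation, per the labels and the submitters' processing notes. The deposited values are log2 levels and were used as they stand. RMA equalises array distributions by quantiles, which can hide a change common to most genes. The deposited levels were still not equal in distribution. Their interquartile range over all rows ran from 2.04 on the combination 6 h array to 2.88 on the quinacrine 24 h array. Of 53617 rows, 23871 had 1 gene symbol (22569 matched to RefSeq, 90 renamed), giving 22395 genes; 5820 with a mean of at least 5 were tested. Limma 3.58.1 in R 4.3.3 (lmFit, eBayes, Benjamini-Hochberg over 5820 genes, threshold 0.05) fitted arm means (8 residual degrees of freedom) or a line in log2 time per arm (5); the lone untreated array is assumed to vary like the others. Single arrays were compared by a difference of 1 log2, with no test. On simulated arrays the arm comparison recovered 64% of 200 genes changed 2-fold, the 6 h reading 48% and the slope 40%. The simulated arrays held no change with time besides the added one, and their spread was that around the fitted lines. The real arm comparison counts change with time as spread, so the 64% need not hold for these data. Named genes were those with the largest differences per array, time group, 6 to 24 h change and list, those with the smallest p per test, list members past 1 log2, and preset genes such as EGFR and SUPT16H. Chosen after their values were seen were BRF1, BLM, VHL, SETDB1, MAT2A, MDK, FZR1, NOTCH1, TMEM209, NUDT16L2P, the interferon list's exceptions and the genes outside it with the promoter element. Members and gene lists were chosen with earlier results of these data known. Gene length was not used. Arrays have no read depth; their number limits precision.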

Additional observations from a re-analysis of the deposited data

Results flagged for a closer look

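The combination 6 h array stood far from the other 3 combination arrays, by Dixon's limit for 4 values, which chance passes in about 1 of 20 groups. Its median difference from untreated over the tested genes was -0.21, and it had 7470 rows whose level reached 5. It enters the check of the 6 to 24 h change in the combination arm and the spread of the limma tests.

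FAM83H and IL24 lay on opposite sides of the untreated array with quinacrine and erlotinib, and that difference was not tested. FAM83H, a keratin-organising gene, differed by -2.12, -1.58 and -1.41 on the quinacrine arrays, a mean of -1.703, and by 0.44, 0.26, 0.08 and 0.1 on the erlotinib arrays. IL24 differed by 2.02, 2.39 and 2.18 with quinacrine, a mean of 2.197, and by -0.05, -0.59, -1.49 and -0.54 with erlotinib.

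Among 2500 rows with a mean of at least 5 that do not have exactly 1 gene name, and which entered no comparison, 31 were at least 1 log2 higher and 29 at least 1 log2 lower on all 3 quinacrine arrays. On the erlotinib 6 h array 116 of these rows were 1 log2 away from untreated in either direction.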

How the results depend on the processing

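The deposited scale, the filter and the weight of single arrays set how many genes were called, while no gene called in the arm test or the 6 h reading changed direction under the alternatives run. The test of the arm mean called 2 genes; it called 0 with arrays centred on all rows, 6 with cyclic loess, 6 with centring on the tested genes, 4 with a slope shared by the arms and 494 with array weights, and from 0 to 5 with 1 array left out. The reading at 6 h called 23; it called 61 at a mean of at least 6, 10 with no filter, 7 with centring on all rows, 89 with loess, 88 with centring on the tested genes, 304 with array weights, 57 with a variance trend, 2 with time in hours, 0 with 6, 12 and 24 h only, and from 0 to 60 with 1 array left out. The reading at 24 h called 0; it called 6 at a mean of at least 4, 49 at 6, 7 with no filter, 43 with loess, 60 with centring on the tested genes, 429 with array weights, 77 with a variance trend and from 0 to 17 with 1 array left out. The slope called 0; it called 12 at a mean of at least 6, 3 with centring on all rows, 279 with array weights, 16 with a variance trend and from 0 to 7 with 1 array left out. The slope difference from erlotinib called 0; it called 1 at a mean of at least 6, 1 with array weights and 0 with any 1 array left out. The cause of these moves was not tested. For the arm test and the readings at 6 and 24 h, the array left out was never the untreated one. These results are all set against that array, so their dependence on it could not be read this way.

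At a mean of at least 4, at least 6, or a limit of 1.5 log2, the genes past the limit against untreated were 299, 75 and 37 at 6 h (153 reported), 262, 58 and 16 at 12 h (120) and 313, 74 and 42 at 24 h (159). With centring on all rows the 24 h split was 158 higher and 36 lower. From 6 to 24 h the counts were 343, 60 and 35 (162), with 101 under loess and 107 with centring on the tested genes. In the combination arm 561 genes became 944 with centring on all rows, 250 with loess and 262 with centring on the tested genes. At a mean of at least 4 the sustained higher, sustained lower, early lower and late higher groups held 24, 39, 113 and 112 genes. At a mean of at least 6 the sustained higher, early lower and late higher groups held 4, 27 and 23, and with loess the early lower and late higher groups held 41 and 34. Centring on the tested genes, and all alternatives for the time groups and for the combination arm, were chosen after the data were seen. INPP5A kept its call in the arm test in 20 of 22 alternatives and H2AX in 16. Of the 23 genes called at 6 h, 9 kept the call in more than 50% of their alternatives and 14 did not. DSN1 kept it in 20 of 22 and KCTD5 and RPTOR in 19, whereas POLR1A kept it in 5, with log2 values from -1.01 to -0.328.

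No paired analysis was possible because the comparisons are with an untreated array that has neither a time nor a replicate number to match. The slope difference from erlotinib has time as a term of its own. With 1 array per treatment and time, precision is limited by the number of arrays, and a difference between 2 arrays has no replicate check.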
